A study of Mus musculus with 5 samples.

Results

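The genes described here encode subunits and assembly factors of respiratory complexes I, III and IV in macrophages taken from Matrigel plugs. They were chosen by a rule on symbols that uses no measured value, although earlier results of these data were known at the time. The rule took every probe set whose single annotated symbol begins with Ndufa, Ndufb, Ndufc, Ndufs, Ndufv, Uqcr, Cox4, Cox5, Cox6, Cox7 or Cox8. This gave 139 of the 45037 probe sets that are not array controls, and they name 69 of the 18193 genes with a probe set of their own. By role, the genes are 6 core and 28 accessory subunits of complex I, 8 complex I assembly factors, 8 complex III subunits, 9 common and 7 alternative complex IV subunits, and Ndufa4, Ndufa4l2 and Cox7a2l. A further 10 probe sets carry such a symbol among several and were left unnamed, so that Ndufs6 and Ndufa11 are not analysed here and Ndufb4 is read from 1 dim probe set of its own.

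All mice were Balb/c SCID animals, 7 to 12 weeks old, that carried an Idiotype-specific T-cell receptor transgene. SCID mice make few lymphocytes of their own, and the receptor recognises a piece of the antibody made by MOPC315, a mouse myeloma line. Plugs of Matrigel, a gelled basement membrane extract, were placed under the skin with MOPC315 cells (3 arrays, labelled tumoricidal macrophages) or with an antigen-loss form of MOPC315 (2 arrays, labelled control macrophages). CD11b+ cells were sorted on day 8 and their RNA was hybridised to Affymetrix arrays. The labels call the arrays biological replicates without saying whether animals were pooled. CD11b is also carried by granulocytes and natural killer cells, so the gate alone does not define a macrophage.

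Macrophage markers were high on all 5 arrays. The summed scaled signal of the 10 markers was between 29357 and 43985 in tumoricidal and between 26769 and 35250 in control arrays, so the groups overlapped. Neutrophil markers (10 of 12 measured, 9 with a positive difference) summed to between 10070 and 11581 against between 4624 and 7786. Natural killer cell markers (8 of 9 measured, all 8 positive) summed to between 750.2 and 2881 against between 188 and 502. Eosinophil, mast cell and basophil markers (7 of 8 measured, all 7 positive) summed to between 140.5 and 172 against between 16.0 and 54.1. T cell markers (11 of 12 measured, 8 positive) summed to 1660 in tumoricidal replicate 2 and to between 153 and 241 on the other arrays. Plasma cell or myeloma markers (all 11 measured, 6 negative) summed to between 3982 and 5569 against between 5946 and 6749, and Tnfrsf17 was under the signal floor on all 3 tumoricidal arrays. The part of these other cells in the results below was not tested. In sorted but bulk material, a change in the mix of cells and a change in RNA per cell cannot be told apart.

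The spike-in control probe sets divided the arrays into set A (tumoricidal replicates 1 and 2, control replicate 1) and set B (tumoricidal replicate 3, control replicate 2), for which the labels give no batch. BioC, a spiked bacterial transcript, had log2 signals between 8.94 and 9.44 in set A and of 7.44 and 7.60 in set B. Each set holds both groups, so differences are also given within sets. Control replicate 1 had the largest gap between 3' and 5' Actb probe sets, 0.56 on the log2 scale against between 0.28 and 0.32 on the others, a gap that widens with RNA degradation.

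The respiratory chain lies in the inner mitochondrial membrane. Complex I takes electrons from NADH and passes them to ubiquinone, complex III carries them on to cytochrome c, and complex IV hands them to oxygen. Complexes I, III and IV pump protons as they work, and ATP synthase uses the return flow of protons to make ATP. Most subunits are coded in the nucleus and a few, the catalytic core of the pumps among them, by mitochondrial DNA. In macrophages, inflammatory activation is known for a shift towards glycolysis, and alternative activation for continued use of the chain.

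The common subunits of all 3 complexes had higher mean log2 signals in tumoricidal than in control macrophages, without exception, but no single one passed the test. The log2 difference, tumoricidal minus control, was positive for all 34 complex I, all 8 complex III and all 10 complex IV subunit genes. This was read with 1 probe set per gene and Ndufa4 counted in complex IV. It held under each of the 6 array scalings tried, in places by very little. Under quantile normalization the difference was 0.0019 for Ndufa12 and 0.015 for Ndufb11. The median difference was 0.61 (range 0.34 to 1.01) for complex I, 0.75 (0.44 to 1.26) for complex III and 0.69 (0.33 to 1.04) for complex IV, that is, 1.53-fold, 1.68-fold and 1.62-fold. Over all 17074 named genes the median was 0.13, and 63.0% of them were positive. Every tumoricidal array was above both control arrays in 29 of 34, 5 of 8 and 7 of 10 of these genes, in the order I, III and IV, where 17.0% of all named genes had such a gap in that direction and 6.51% in the other.

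At the level of probe sets, 137 of the 139 members could be tested, and 1 probe set each for Ndufb9 and Cox5b was under the floor, a scaled signal of 4.79, on all arrays. In the limma fit over 41053 probe sets, 0 of the 137 had an adjusted p under 0.05 in either direction, where 0.0341% of all probe sets were called higher and 0.0171% lower. At an unadjusted p under 0.05, 34 members (24.8%) were higher and 1 (0.73%), that of Cox7b2, was lower, against 4.92% and 3.07% of all probe sets. The groups were apart with tumoricidal higher in 85 members (62.0%) against 13.3% of all probe sets, and with tumoricidal lower in 2 members, a probe set of Cox7b2 and a dim one of Ndufab1, against 7.6%. A positive difference was found in 125 members (91.2%) against 58.4% of all. Precision is limited throughout by having 3 arrays against 2.

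The dim probe sets did not share the pattern of the bright ones. All 100 tested members with a mean signal above 100 had a positive difference, with a median of 0.66, and the groups were apart in 79 of them. Positive differences were also common among bright genes at large. Of 1316 named genes with a mean log2 level above 9.40, a higher limit, 1123 were positive. In 505 of these 1316 genes the groups were apart with tumoricidal higher. Among the 37 at or below 100, 25 were positive and the median was 0.14. For the 29 genes with more than 1 probe set above 100, all such probe sets were positive in each of the 29 genes. The 5 bright probe sets of Ndufs8, a core subunit that holds iron-sulfur clusters, had differences between 0.28 and 0.51, and the 4 of Cox5b, a structural subunit of complex IV, between 0.73 and 0.85.

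**Figure D1:**
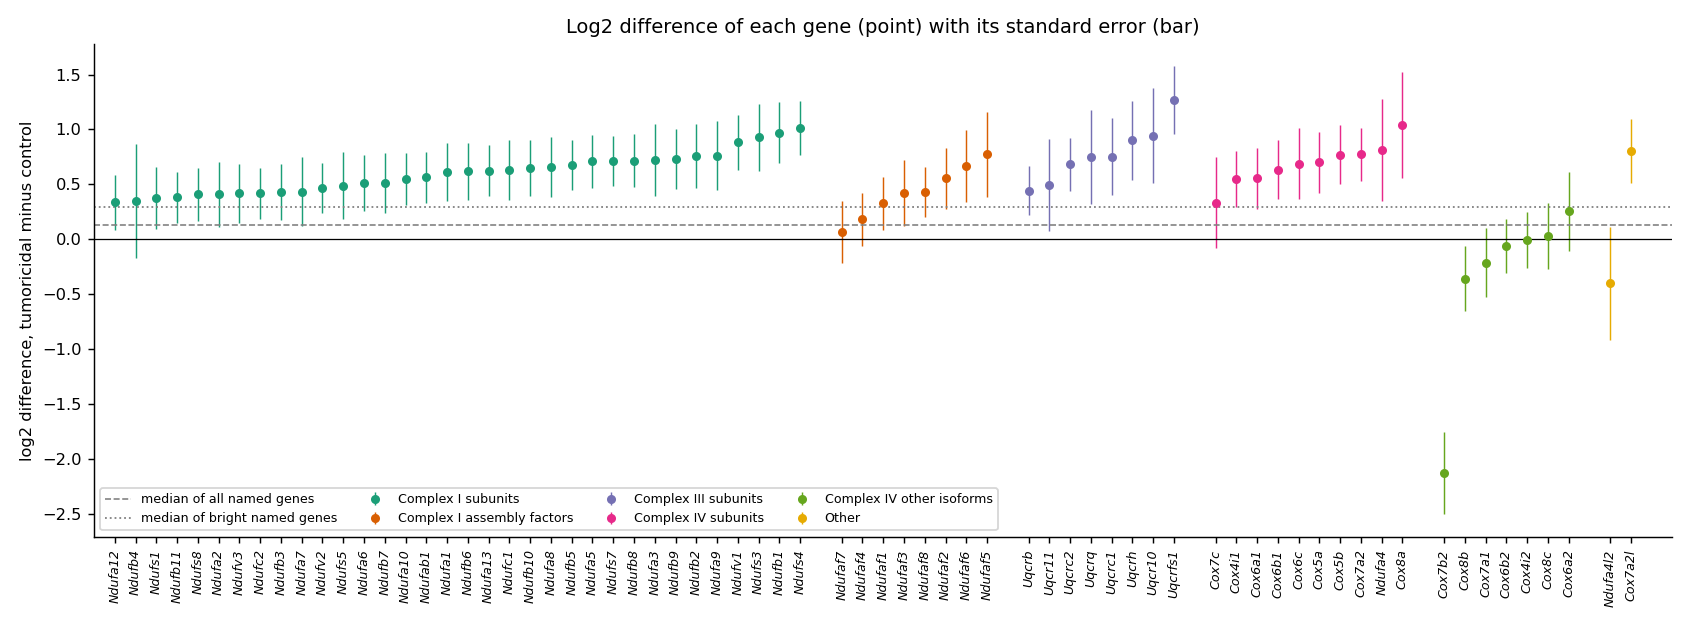
Log2 difference (tumoricidal minus control, y axis) of each respiratory chain gene (points along the x axis, 1 probe set per gene), grouped and coloured by complex and role, with bars of 1 standard error of the limma fit over 3 tumoricidal and 2 control arrays and lines at the median of all named genes (dashed) and of bright named genes (dotted). All 52 common subunits of complexes I, III and IV lie above 0, from 0.33 to 1.26, while the alternative complex IV isoforms lie on both sides, with Cox7b2 at -2.13; the signs of Cox4i2, Cox8c, Ndufaf4 and Ndufaf7 change with the array scaling.

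The subunits differed between arrays as a block. The median log2 level over the complex I subunits was, in order of replicate number, 10.30, 10.06 and 10.16 on the tumoricidal and 9.40 and 9.72 on the control arrays, an order kept below. For complex III it was 10.17, 9.73 and 10.01 against 8.69 and 9.59, and for complex IV 11.96, 11.69 and 11.85 against 11.02 and 11.36. In each complex all 3 tumoricidal medians were above both control medians, and in complex III tumoricidal replicate 2 came close to control replicate 2. Control replicate 1 was the lowest array for 50 of the 52 subunits and control replicate 2 for the other 2. The highest array was tumoricidal replicate 3 for 25, replicate 1 for 21 and replicate 2 for 6.

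Both controls therefore bear on the size of the difference. Without control replicate 1 the medians were 0.41, 0.41 and 0.39 for complexes I, III and IV, with 33 of 34, 7 of 8 and 9 of 10 subunits positive. Without control replicate 2 they were 0.79, 1.20 and 0.93. Within set A the medians were 0.71, 1.14 and 0.93, and within set B, which does not hold control replicate 1, they were 0.49, 0.51 and 0.48, with 33 of 34, 8 of 8 and 10 of 10 positive. Set B compares 1 array with 1 array and gives no test.

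**Figure D2:**
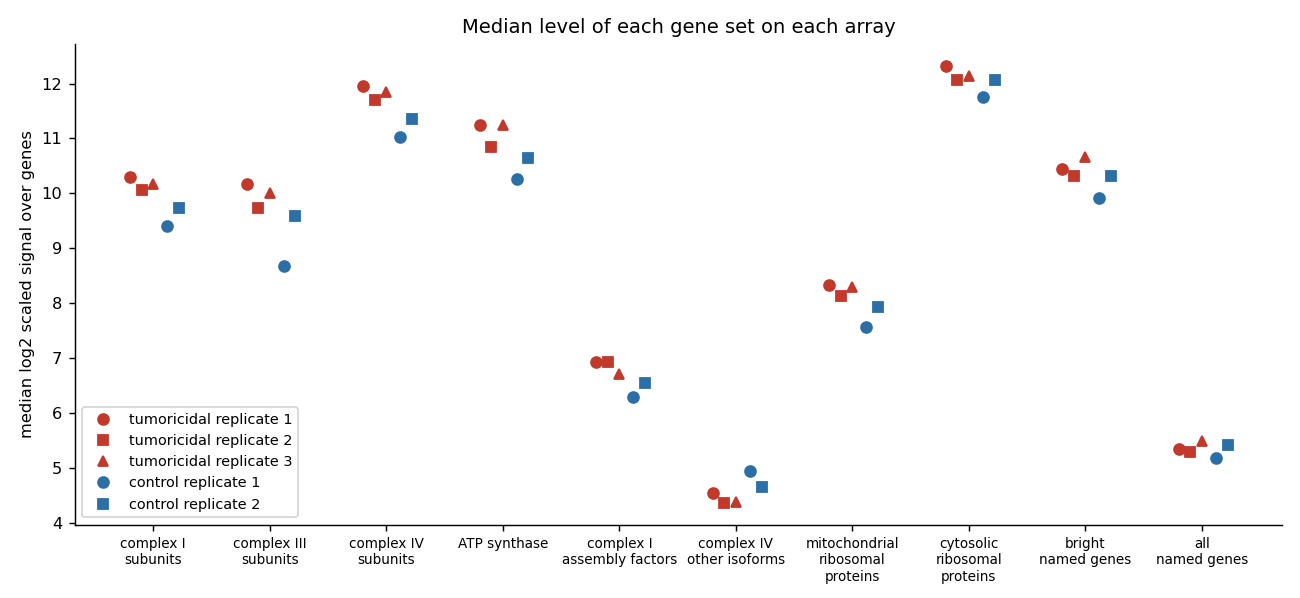
Median log2 scaled signal (y axis) over the genes of each set on each of the 5 arrays, with red symbols for tumoricidal and blue symbols for control replicates. The 3 tumoricidal medians lie above both control medians for complexes I, III and IV and for ATP synthase, and control replicate 1 is the lowest array in these sets and among bright and all named genes; heights of different sets are not to be compared, since probe sets differ in response.

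Because array scaling sets where 0 lies, the differences were set against those of bright named genes. This set has only a lower limit of brightness, includes the subunits above that limit and is not matched to any complex. On each array the complex IV median (11.02 to 11.96) was above that of the bright genes (9.915 to 10.67). The 1316 named genes with a mean log2 level above 9.40, the lower quartile of the 52 subunits, had a median difference of 0.29, and 1123 of them were positive and 505 apart with tumoricidal higher. Set against this median, the complexes stood 0.33, 0.46 and 0.41 above it. The median of all named genes moved from 0.13 to -0.07 with the deposited scaling and to 0.02 with quantile normalization. Relative to it, the complexes had medians of 0.49, 0.62 and 0.57 as scaled here, 0.45, 0.59 and 0.53 with the deposited scaling, and 0.25, 0.44 and 0.35 with quantile normalization. Under quantile normalization and cyclic loess the medians over bright genes were -0.03 and -0.03, and the complexes then stood 0.30, 0.49 and 0.40, and 0.32, 0.50 and 0.37, above them. Under each of the 6 scalings all 52 subunits were above the median of the bright genes. Median, deposited, 75th percentile and ribosomal scaling each multiply an array by a factor, which moves subunits and bright genes alike. Apart from signals at the floor, only quantile normalization and cyclic loess could have changed this comparison.

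Ribosomal protein genes give a comparison that is not moved by multiplying an array by a factor. On each array, the median of the complex I subunits minus that of 49 cytosolic ribosomal protein genes was -2.02, -2.00 and -1.97 in tumoricidal and -2.36 and -2.34 in control macrophages. For complex IV this value was -0.36, -0.36 and -0.28 against -0.74 and -0.70, and for complex III -2.15, -2.32 and -2.12 against -3.08 and -2.47. The groups were apart in all 3 complexes, by mean differences of 0.35, 0.39 and 0.57 for I, IV and III. Against 76 mitochondrial ribosomal protein genes the mean differences were 0.11 and 0.14 for complexes I and IV, with the groups apart, and 0.33 for complex III, where they overlapped.

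**Figure D3:**
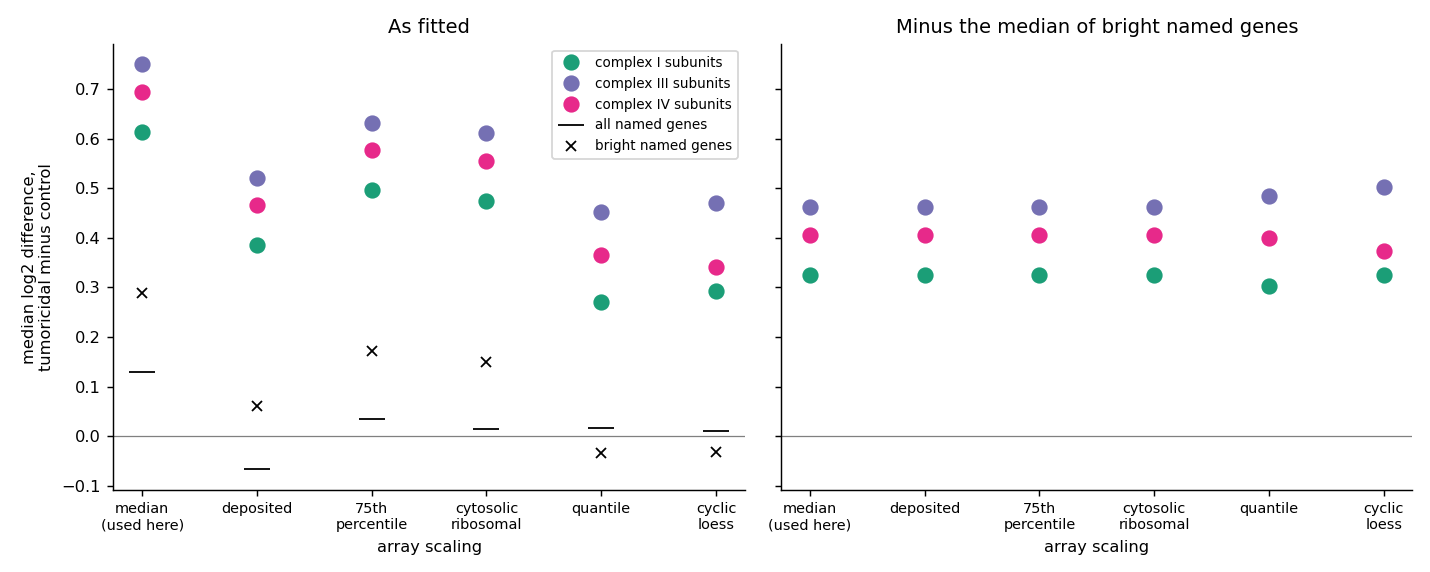
Median log2 difference (tumoricidal minus control, y axis) of complexes I, III and IV and of all and bright named genes under 6 array scalings (x axis), as fitted (left) and after subtraction of the median of the bright named genes (right). As fitted, complex I runs from 0.61 with median scaling to 0.27 with quantile normalization, and no complex changes sign. On the right complex I lies between 0.30 and 0.33. There only quantile normalization and cyclic loess could move it, since the other scalings multiply each array by a factor.

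The promoters of the subunits were searched for 3 motifs of factors known to act on respiratory genes. Promoters were taken from RefSeq (GRCm38.p6) as 250 bases before to 50 after each gene's start, and 44 of the 52 common subunits had one. On either strand, the NRF1 motif GCGCATGCG was in 4 of the 44 (9.09%) against 1.95% of 27025 genes. The ETS motif CCGGAAGT, bound by GABP, was in 4 (9.09%) against 4.31%, and the YY1 motif AAGATGGCG in 4 (9.09%) against 1.64%. No listed motif contains another. Matches to NRF1 and ETS motifs that lie wholly before the start are shown for the subunits and, for NRF1, for the assembly factor Ndufaf4, to show where in the promoter the letters lie. Matches that reach past the start, and any on a chromosome that was left out of the printed list, are not shown. The list therefore holds only a part of the matches counted above, and no match to the YY1 motif is printed. Each sequence runs 5′ to 3′ in the direction of the gene, with up to 30 bases on either side of the motif, which is in capitals, and stops at the start of the gene.
Uqcrh, ETS on the opposite strand, chr4:116075071-116075111, minus strand: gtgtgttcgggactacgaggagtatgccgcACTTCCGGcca
Uqcr11, ETS, chr10:80406850-80406917, minus strand: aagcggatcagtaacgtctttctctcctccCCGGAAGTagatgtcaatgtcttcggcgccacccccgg
Ndufa8, NRF1 on the opposite strand, chr2:36049339-36049377, minus strand: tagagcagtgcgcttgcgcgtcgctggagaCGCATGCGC
Cox6a1, NRF1, chr5:115349082-115349150, minus strand: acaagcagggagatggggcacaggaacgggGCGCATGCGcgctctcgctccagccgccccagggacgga
Ndufaf4, NRF1, chr4:24897940-24898008, plus strand: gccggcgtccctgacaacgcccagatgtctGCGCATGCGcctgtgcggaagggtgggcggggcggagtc
The differences of these genes were 0.90 for Uqcrh, 0.49 for Uqcr11, 0.66 for Ndufa8, 0.55 for Cox6a1 and 0.18 for Ndufaf4. Most subunits held none of these letters in the window searched, and a match is a description of the sequence and not a bound site. The genes of the factors had differences of 0.14 (Nrf1), 0.0065 (Gabpa), 0.48 (Gabpb1) and 0.15 (Yy1). The median over all named genes was 0.13. The groups overlapped for Nrf1, Gabpa and Gabpb1 and were apart by a narrow margin for Yy1. Whether these factors act on the subunits here was not tested.

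The core subunits of complex I coded in the nucleus hold the flavin, the iron-sulfur clusters and part of the ubiquinone site. All 6 measured had positive differences (median 0.59, range 0.37 to 0.93), and the groups were apart in 5. Tumoricidal arrays were higher and apart in 17.0% of all named genes and in 505 of the 1316 bright ones. Ndufs3, a subunit of the arm that leads electrons to ubiquinone, had scaled signals of 985, 722 and 998 in tumoricidal and 384 and 571 in control macrophages. Its difference of 0.93 (SE 0.30, limma adjusted p = 0.52) came with every tumoricidal array above both controls. Ndufv1, which binds NADH and flavin, had signals of 753, 625 and 708 against 338 and 419, also with no overlap, and a difference of 0.88 (SE 0.25, limma adjusted p = 0.43). Ndufs7 (0.72), Ndufv2 (0.47) and Ndufs8 (0.41) are iron-sulfur subunits as well. Ndufs8 had signals of 1485, 1487 and 1374.5 against 973 and 1225, again apart. Ndufs1, the largest core subunit coded in the nucleus, was the exception. Its signals were 334, 324 and 433 against 236 and 328.5, with tumoricidal replicate 2 below control replicate 2, and its difference was 0.37 (SE 0.28).

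Accessory subunits surround the core and are needed to build it or keep it stable. All 28 had positive differences (median 0.61), with the groups apart in 24 and an unadjusted p under 0.05 in 9. These counts are to be read against 17.0% and 6.12% of all named genes, and against 505 and 168 of the 1316 bright named genes. Ndufs4, whose loss in mice gives a Leigh-like brain disease, had signals of 704, 637 and 666 against 291 and 378. The groups were far apart, and the difference was 1.01 (SE 0.25), with the lowest adjusted p of the complex I genes (limma, 0.36). It was 1.20 in set A and 0.82 in set B. Ndufb1, a small membrane subunit, had signals of 179, 143 and 219 against 85.1 and 96.1 and a difference of 0.97 (SE 0.28). Ndufa9 (0.76), which lies near the ubiquinone site, Ndufb2 (0.76), Ndufb9 (0.73), Ndufa3 (0.72), Ndufb8 (0.72) and Ndufa5 (0.71) came next. At the lower end, Ndufa12, an accessory subunit of the matrix arm, had signals of 1314, 1216 and 1574 against 1153 and 1005. The groups were apart by a narrow margin, and the difference was 0.34 (SE 0.25). Ndufb4 was read by a dim probe set with signals of 10.7, 13.3 and 5.96 against 4.70 and 11.5, and this probe set had a difference of 0.35 (SE 0.52), which was -0.95 within set B. The 2 brighter probe sets whose annotation lists Ndufb4 together with Ndufb4b and Ndufb4c had differences of 0.61 (SE 0.26) and 0.77 (SE 0.26), both with the groups apart, but cannot be assigned to 1 of these genes. The groups also overlapped for Ndufa2 (0.41), Ndufa7 (0.43) and Ndufs5 (0.49).

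**Figure D4:**
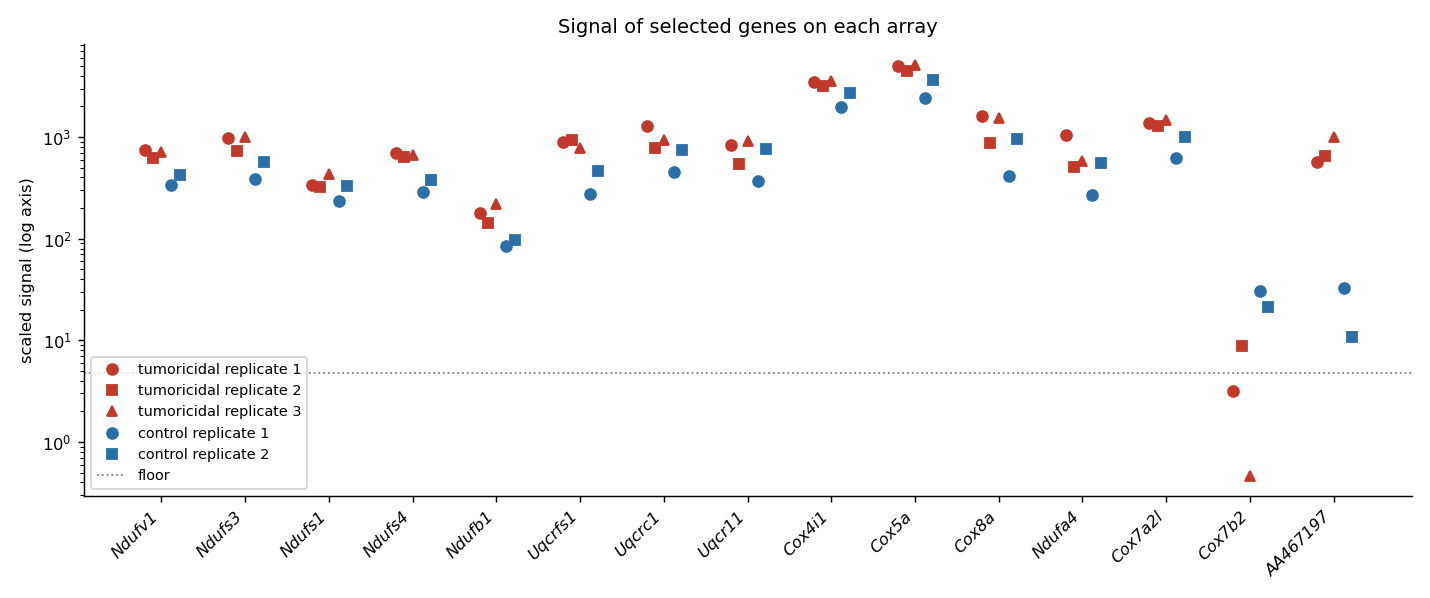
Scaled signal (y axis, log scale) of selected genes on each array, with red symbols for the 3 tumoricidal and blue symbols for the 2 control replicates and a dotted line at the floor of 4.79. Ndufs4, Ndufv1, Uqcrfs1 and Cox5a show no overlap of the groups, Ndufa4 overlaps, and AA467197 has signals of 566 to 1004 in tumoricidal and of 10.8 and 32.8 in control macrophages.

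The complex I assembly factors help to put the complex together and are not part of it. Their differences had a median of 0.42 (range 0.07 to 0.77) over 8 genes, 5 of them with the groups apart, and none had an unadjusted p under 0.05. Of all named genes, 17.0% were apart with tumoricidal higher and 6.12% were higher at that unadjusted p in limma. This median was below that of the complex I subunits, but the gap depended on scaling. With quantile normalization the medians were 0.22 for assembly factors and 0.27 for complex I subunits, and with cyclic loess 0.22 and 0.29. As scaled here, the medians of the assembly factors were 0.61 in set A and 0.16 in set B. Ndufaf5 had signals of 74.8, 70.2 and 71.3 against 28.2 and 63.1. Control replicate 2 lay close below the tumoricidal arrays and control replicate 1 far below them, and the difference was 0.77 (SE 0.38). Ndufaf6 had signals of 69.97, 44.1 and 74.2 against 33.7 and 43.9, with tumoricidal replicate 2 level with control replicate 2, and a difference of 0.67 (SE 0.33). Ndufaf4, at 256, 240 and 277 against 207 and 249.6, and Ndufaf7, at 55.6, 68.8 and 79.2 against 55.3 and 74.5, had overlapping groups. Their differences of 0.18 and 0.07 became negative with the deposited scaling, quantile normalization and cyclic loess, and that of Ndufaf7 also with scaling to the 75th percentile or to ribosomal proteins. Whether assembly factors and subunits differ was not tested.

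Complex III had 8 measured subunits, all with positive differences, and the groups were apart in 5. The count apart is to be read against 17.0% of all named genes and 505 of the 1316 bright ones. Uqcrfs1, the Rieske iron-sulfur protein that takes electrons from ubiquinol, had signals of 886, 925 and 781 against 275 and 468. Every tumoricidal array was well above both controls. The difference was 1.26 (SE 0.31, limma adjusted p = 0.36), that is, 1.72 in set A and 0.74 in set B. Uqcrc1 and Uqcrc2, the large core proteins on the matrix side, had differences of 0.75 and 0.68. Uqcrc1 had signals of 1274, 782 and 945 against 452 and 749, where tumoricidal replicate 2 was only just above control replicate 2. Uqcrh, the hinge protein at the cytochrome c site, had a difference of 0.90.

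Other small complex III subunits overlapped between groups. Uqcr10 had signals of 781, 557 and 902 against 255 and 569, and a difference of 0.94 (SE 0.43). Uqcr11 had signals of 825, 543 and 918 against 367 and 761. Tumoricidal replicate 2 was again below control replicate 2, and the difference of 0.49 (SE 0.42) became -0.03 without control replicate 1. Uqcrq (0.75, SE 0.43), a ubiquinone-binding subunit, overlapped in the same way. Uqcrb, also near a ubiquinone site, had signals of 6744, 6361 and 7046 against 4879.9 and 4998, so the groups were apart, with a difference of 0.44 (SE 0.22).

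In complex IV the nuclear subunits surround a catalytic core coded by mitochondrial DNA. Cox4i1, the common form of the subunit through which ATP levels act on the enzyme, had signals of 3486, 3203 and 3563 against 1996 and 2729. Its groups were apart, with a difference of 0.55 (SE 0.26). Cox5a, its neighbour in the assembled enzyme, had signals of 4959.6, 4452 and 5166 against 2431 and 3652 and a difference of 0.70 (SE 0.28). Cox7a2, the common form of subunit VIIa, had signals of 4546, 4302 and 4229 against 2256 and 2872. It had the lowest adjusted p of the complex (limma, 0.498), with a difference of 0.78 (SE 0.24) and no overlap. Cox5b (0.77), Cox6c (0.69), Cox6b1 (0.63) and Cox6a1 (0.55) were apart as well.

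The remaining common subunits of complex IV overlapped in the probe set used for each gene. Cox8a had the highest difference, 1.04 (SE 0.48), from signals of 1615, 869 and 1529 against 409 and 964. Tumoricidal replicate 2 lay below control replicate 2. The other bright probe set of Cox8a had signals of 1422, 990 and 1325 against 383 and 854. There the groups were apart, with a difference of 1.11 (SE 0.41). The probe set of Cox7c was dim, at 42.5, 47.4 and 63.7 against 26.9 and 59.7. Its difference of 0.33 (SE 0.41) became -0.24 without control replicate 1. A second, dimmer probe set of Cox7c had a difference of -0.17 (SE 0.36). Ndufa4, once counted with complex I and now known as a subunit of complex IV, had signals of 1042, 505 and 586 against 268 and 553. Its difference was 0.81 (SE 0.47), but 1.43 in set A and 0.08 in set B.

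Isoforms of complex IV subunits known from other tissues did not follow the common ones. These are Cox4i2 of the lung, Cox6a2, Cox7a1 and Cox8b of muscle, and Cox6b2, Cox7b2 and Cox8c of the testis. All were read from dim probe sets with mean signals under 100, where the tested members had a median of 0.14. A low signal and the kind of isoform thus cannot be told apart here. The median over the 7 genes was -0.06, with 2 positive and 5 negative, and no gene was apart with tumoricidal higher. Of all named genes, 63.0% were positive and 17.0% apart in that direction. Cox6a2 had signals of 71.4, 51.5 and 41.0 against 35.4 and 56.3, with a difference of 0.25 (SE 0.36). Cox8c, at 72.4, 99.9 and 77.7 against 98.8 and 65.9, had a difference of 0.03 (SE 0.30), which became negative under each of the 5 other scalings. Cox8b was under the floor on all arrays but control replicate 1, at 3.46, 2.89 and 2.81 against 7.89 and 1.3. Cox4i2 (-0.01), which turned positive with quantile normalization and cyclic loess, Cox6b2 (-0.06) and Cox7a1 (-0.21) all overlapped.

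Cox7b2 was the single member gene with tumoricidal arrays lower and apart. Its signals were 3.15, 8.76 and 0.468 in tumoricidal and 30.7 and 21.5 in control macrophages. Because 2 of the tumoricidal values lie under the floor of 4.79, the difference of -2.13 (SE 0.38, limma adjusted p = 0.21) is a bound. It was -2.24 in set A and -2.17 in set B. The summed signal of plasma cell or myeloma markers was lower in the same arrays, as given above, although 5 of the 11 markers had a positive difference. The part of such cells in the Cox7b2 value was not tested.

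A pair of genes near the edge of the family differed from each other. Cox7a2l, also called Scaf1, has been described as a factor that joins complexes III and IV into supercomplexes, which were not measured here. Its signals were 1388, 1275 and 1458.5 against 623 and 992. The groups were apart, and the difference was 0.80 (SE 0.29, limma adjusted p = 0.58). Ndufa4l2, a paralog of Ndufa4 known as a target of hypoxia-inducible factor, had signals of 22.5, 8.76 and 24.1 against 26.5 and 18.6. These overlapped, with a difference of -0.40 (SE 0.51) that was 0.37 in set B.

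AA467197, known as Nmes1, is a further paralog of Ndufa4 whose symbol lies outside the prefixes, and its protein can take the place of Ndufa4 in complex IV. Its signals were 566, 650.3 and 1004 against 32.8 and 10.8. The difference of 5.25 (SE 0.54) was many times that of any subunit, with a limma adjusted p of 0.066, short of the threshold. It was 4.21 in set A and 6.54 in set B, and between 4.45 and 6.05 when single arrays were left out. The adjusted p was 0.00239 when only probe sets above the median were tested and 0.023 when limma's prior variance followed signal. Ndufa4 itself, with a difference of 0.81, was not lower in tumoricidal macrophages.

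Other genes of oxidative phosphorylation were listed as pathways, and in these too 0 genes passed the adjusted threshold in limma, against 0.0527% of all named genes called higher and 0.0117% called lower. Complex II, which takes electrons from succinate, had all 4 subunits positive, with a median of 0.92, 3 with the groups apart and 3 at an unadjusted p under 0.05. Of all named genes, 63.0% were positive, 17.0% apart with tumoricidal higher and 6.12% higher at that unadjusted p. Among the 1316 bright named genes the counts were 1123, 505 and 168. Sdhb, its iron-sulfur subunit, had signals of 2110.5, 1692 and 2094 against 718 and 1083.5 and a difference of 1.15 (SE 0.29, limma adjusted p = 0.38). Sdhd, a membrane anchor, had signals of 802, 612 and 931 against 256 and 545 and a difference of 1.04 (SE 0.40). In both genes the groups were apart. ATP synthase had all 16 subunits positive, from 0.46 to 0.84 with a median of 0.65, and 15 apart. Atp5j (0.84) and Atp5g1 (0.80) had the highest differences. Cyc1, the cytochrome of complex III, had a difference of 0.84 and Cycs, cytochrome c, of 0.67, both apart. Of the 13 subunits coded by mitochondrial DNA only ND5 was measured, at 9117, 5514 and 8059 against 6824 and 4348, with overlapping groups and a difference of 0.44 (SE 0.35).

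Assembly factors of complexes I, III and IV outside the symbol prefixes had a median of 0.30, with 27 of the 30 measured genes positive and 11 apart. Of all named genes, 63.0% were positive and 17.0% apart with tumoricidal higher. Coa5, which acts in building complex IV, had signals of 1720.2, 1626 and 1481 against 653 and 701. Its difference of 1.25 (SE 0.23, limma adjusted p = 0.22) was 1.36 in set A and 1.08 in set B, with the groups far apart. Cox11, which delivers copper, had a difference of 0.72. Among 14 regulators of mitochondrial gene expression the median was 0.24, with 11 positive and 6 apart with tumoricidal higher, to be read against the same shares. Ppargc1b, a coactivator of mitochondrial genes, had signals of 286, 358 and 350.3 against 111.5 and 96.8. The difference was 1.67 (SE 0.25, limma adjusted p = 0.15), similar in set A (1.52) and set B (1.86). Hif1a, the oxygen-regulated transcription factor, had a difference of 0.71 with the groups apart, and Myc, a growth regulator, one of -0.53 with tumoricidal arrays lower and apart.

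The ribosomal lists set these values in context. Mitochondrial ribosomal protein genes had a median of 0.42, with 75 of 76 positive and 42 apart with tumoricidal higher. Mrpl13 (0.94) and Mrps16 (0.92) had the largest differences. Cytosolic ribosomal protein genes had a median of 0.23, with 45 of 49 positive and 23 apart with tumoricidal higher. Of all named genes 63.0% were positive and 17.0% apart in that direction, and of the 1316 bright named genes 1123 and 505 were. The 2 largest differences among the cytosolic ribosomal protein genes were in dim probe sets, 1.96 for Rps4l and 0.73 for Rps27, and the groups overlapped in both.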

How the data were processed

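The authors deposited linear intensity values, 1 per probe set and array, from labelled cRNA made from 6 µg of total RNA, per the labels. How probes were summarised and scaled, and with which software, is not given in the sources used here. The trimmed mean (2% off either end) of every array was 100, while array medians differed by up to 1.47 times, so each array was scaled here to the median of the array medians, 18. Signals under the pooled 25th percentile (4.79) were raised to it and log2 was taken. The 3984 probe sets at this floor on all arrays and 64 control probe sets were left out. The other 41053 were compared with limma 3.58.1 in R 4.3.3 (lmFit and eBayes with no covariate; tests were two-sided, with a threshold of 0.05 after Benjamini-Hochberg adjustment), and every adjusted p is from such a fit over all probe sets. Differences and SE are on the log2 scale and folds are their antilogs. The fit was tested on simulated data. Arrays give no counts and thus no depth.

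Names came from the platform annotation, in which 34945 probe sets have 1 symbol, 932 several and 9160 none. RefSeq (GRCm38.p6) gene identifiers held all 139 member symbols and changed 0. A gene is read from its probe set with the highest mean log2. Signals on every array are given for the 2 highest and 2 lowest genes of each role and for a fixed list of members. Other genes are named as examples within their role or list. The members, lists and tests were chosen with earlier results of these data known. Alternatives were other scalings, floors, filters and variance priors, blocks for spike-in set and replicate number, single arrays left out, and other ways to pick probe sets. Leaving out probe sets ending in _x_at or _s_at was chosen after seeing the data. Python 3.11.15 and matplotlib 3.10.9 were used for summaries and figures.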

Additional observations from a re-analysis of the deposited data

How the results depend on the processing

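No member probe set passed the adjusted threshold under any alternative. Over all probe sets, 21 passed, and the count was 13 with scaling on cytosolic ribosomal proteins, 0 with a floor at the 10th percentile, 0 with no floor, 193 (168 higher) with only probe sets above the median, 62 without a filter, 65 with a variance trend, 0 with the spike-in set as a block and between 0 and 0 with single arrays left out. The 34 members higher at an unadjusted p under 0.05 became 12 with the deposited scaling, 11 with quantile normalization, 13 with cyclic loess, 13 with the lower floor, 12 with no floor, 60 with the trend and 55 with the set as a block. Leaving out single arrays gave between 5 and 74: 5, 21 and 7 without tumoricidal replicates 1, 2 and 3, 9 without control replicate 1 and 74 without control replicate 2. The median of complex I was 0.39 with the deposited scaling, 0.27 with quantile normalization and 0.29 with cyclic loess, and that of complex IV 0.47, 0.37 and 0.34. Within sets A and B the median of complex IV was 0.93 and 0.48. With single arrays left out, complex I lay between 0.41 and 0.79, complex III between 0.41 and 1.20 and complex IV between 0.39 and 0.93. The medians kept their sign under every alternative run.

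Of 70 genes followed, 59 kept the sign of their difference throughout and 11 did not. Cox4i2 was 0.0086 with quantile normalization, 0.037 with cyclic loess, 0.018 with the set as a block and 0.25 within set A. Cox8c was -0.20 with the deposited scaling, -0.078 with quantile normalization, -0.085 at the 75th percentile, -0.071 with cyclic loess, -0.11 on ribosomal proteins, -0.022 with the set as a block and -0.22 within set A. Ndufaf7 was -0.16, -0.017, -0.051, -0.014 and -0.073 under the same 5 scalings. Ndufaf4 was -0.049, -0.035 and -0.030 with the deposited scaling, quantile normalization and cyclic loess. Within set B, Ndufa4l2 was 0.37, Cox6a2 -0.46 and Ndufb4 -0.95, and within set A Cox7a1 was 0.11. With single arrays left out, the range was -0.23 to 0.22 for Cox4i2, -0.081 to 0.59 for Cox6a2, -0.18 to 0.054 for Cox6b2, -0.60 to 0.17 for Cox7a1, -0.24 to 0.91 for Cox7c and -0.26 to 0.32 for Cox8c. It was -0.66 to 0.067 for Ndufa4l2, -0.15 to 0.28 for Ndufaf7, -0.28 to 0.95 for Ndufb4 and -0.032 to 1.02 for Uqcr11. The causes were not tested.

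Replicate numbers 1 and 2 occur in both groups, and the labels do not say that they pair the arrays. Deviations of same-numbered arrays from their group means correlated with r = 0.023 and -0.24 across probe sets. The deviations of 2 controls mirror each other, so these values cannot decide whether the arrays are paired. With the replicate number as a block, 0 probe sets passed, 3 members were higher at an unadjusted p under 0.05, and the medians of complexes I, III and IV were 0.58, 0.74 and 0.63. Cox4i2 was 0.021 and Ndufaf7 -0.053 with that block. Replicate number 3 occurs only in the tumoricidal group, so the block gave the same medians as leaving that array out and is not a separate check.

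The main limits are 5 arrays, 1 low control array, an unstated upstream scaling and dim probe sets near the floor.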
